A study of Mus musculus with 8 samples.

Results

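The PGC-1, ERR and PPAR regulators of mitochondrial genes were examined in bulk RNA sequencing of mouse heart. The group was a list of 10 genes taken by symbol: the coactivators Ppargc1a and Ppargc1b, the nuclear receptors Esrra, Esrrb, Esrrg, Ppara and Ppard, the transcription factors Nrf1 and Gabpa, and the mitochondrial DNA factor Tfam. The rule used no measured value, but the genes were chosen with earlier results of these data known. Each of the 10 genes matched 1 of the 55471 gene rows, and all 10 were among the 15084 genes that passed the filter on low counts. Hearts of 4 wild-type (WT) mice were compared with hearts of 4 TAZG197V mice, to ask how a mutation that causes the human cardiomyopathy Barth syndrome alters cardiac expression. TAZG197V mice carry a CRISPR/Cas9 knock-in that replaces glycine by valine in the product of Taz, an enzyme that remodels the mitochondrial lipid cardiolipin. The edit was made in C57BL/6N zygotes and the founders were crossed to C57BL6/J, so the background is mixed between these substrains. The gene is X-linked. The study worked with hemizygous males, the labels describe homozygous offspring of heterozygous parents, and the sex of each animal was not given in the labels. All mice were 14 weeks old by the study's text, none was treated, and each library came from a small piece of heart. In such tissue, fewer cells of a type and less RNA per cell cannot be told apart.

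PGC-1α and PGC-1β bind no DNA themselves. They are recruited by the oestrogen-related receptors (ERRα, ERRβ and ERRγ), by the peroxisome proliferator-activated receptors (PPARα and PPARδ) and by NRF1, and they raise transcription of nuclear genes for fatty acid oxidation, the citric acid cycle and the respiratory chain. GABPA, also called NRF2α, is the DNA-binding subunit of an ETS family factor that acts on many of the same respiratory genes, and TFAM carries the programme into the organelle by packaging and transcribing mitochondrial DNA. The adult heart draws most of its ATP from fatty acid oxidation, and this network is a main route of its transcriptional control.

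The promoters of the regulators were searched for the DNA elements bound by the members themselves. Windows of 300 bases around RefSeq start sites on GRCm38.p6, the build of the files, were used, and 14 windows of 9 members were searched on both strands. Ppargc1b was not searched. The stretches below are printed because they are the only member windows that held a match to the NRF1 letters GCATGCGC or to the ETS letters CCGGAAG bound by GABPA. Each is given 5′ to 3′ on the gene's own strand, it ends before the start site, and capitals mark the match.
Esrra (chr19:6921811-6921866, minus strand, NRF1 letters): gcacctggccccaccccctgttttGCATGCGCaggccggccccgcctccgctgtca
Ppara (chr15:85735721-85735775, plus strand, NRF1 letters on both strands, overlapping): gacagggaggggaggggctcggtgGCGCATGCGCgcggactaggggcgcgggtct
Tfam (chr10:71238061-71238115, minus strand, ETS letters): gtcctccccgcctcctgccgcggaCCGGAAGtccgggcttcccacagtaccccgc
Gabpa (chr16:84835007-84835061, plus strand, ETS letters on the opposite strand): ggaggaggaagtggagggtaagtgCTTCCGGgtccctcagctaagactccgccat

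The NRF1 letters stood in 2 of the 14 member windows and in 2.71% of all 32817 windows. The ETS letters stood in 2 of the 14 and in 8.86% of all windows. The ERR letters TNAAGGTCA (1.28% of all windows) and a direct repeat of AGGTCA spaced by 1 base, the element of PPAR with its partner RXR (0.0396%), were in none of the 14. The 2 windows of Esrrb and the 4 of Esrrg held none of the searched letters, which says only that these letters are not in those windows. A match is a description of the sequence and not of binding.

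Total counts ranged from 23055689 to 36301031 per library. Taz, the edited gene, was lower in TAZG197V hearts by 0.37 on the log2 scale (SE 0.055, adjusted p = 0.00124, edgeR quasi-likelihood test). Some libraries stood apart from the rest. The summed level of 6 brain genes, in CPM (counts scaled to library size), was 107.7 in WT 4 and 273.7 in TAZG197V 4 against 8.91 to 12.2 in the other 6 libraries, and all 6 genes were highest in those 2. Red cell genes summed to 48922 CPM in WT 4 against 198 to 938 elsewhere, and 4 atrial genes to 1057 CPM in WT 2 against 3.79 to 130.0 elsewhere. The 7 adipocyte genes summed to 22.2 CPM in WT 2 and at most 3.85 CPM elsewhere. Of the marker genes that were tested, 5 of 5 red cell genes, 2 of 3 atrial genes and the 1 adipocyte gene were called lower, and 1 of 4 brain genes was called higher. Cardiomyocyte identity was plain: 6 genes such as Myh6 and Tnnt2 summed to between 48649 and 53520 CPM in WT and between 39364 and 43940 CPM in TAZG197V, with no overlap and 4 of the 6 called lower. Fibroblast and endothelial genes had 2 of 5 called lower each, and the 5 macrophage and 2 skeletal muscle genes tested had none. The part of these shifts in the results below was not tested, beyond the values given without both libraries numbered 4.

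Across the network, 1 regulator rose, 1 fell and 8 did not pass the test. A gene was called when its adjusted p was under 0.05, its log2 fold change was beyond 0.20 either way, the fold limit of the study, and its mean scaled count was at least 50. By this rule 33.5% of all genes tested were called, 18.5% higher and 15.1% lower. Among the members 2 of 10 were called, which is not above that background. The genotypes did not overlap in CPM for the same 2 members, against 33.2% of all genes. The median log2 fold change of the 10 was -0.06 and that of all genes tested was -0.01. The called pair were both oestrogen-related receptors, and they went in opposite directions.

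**Figure D1:**
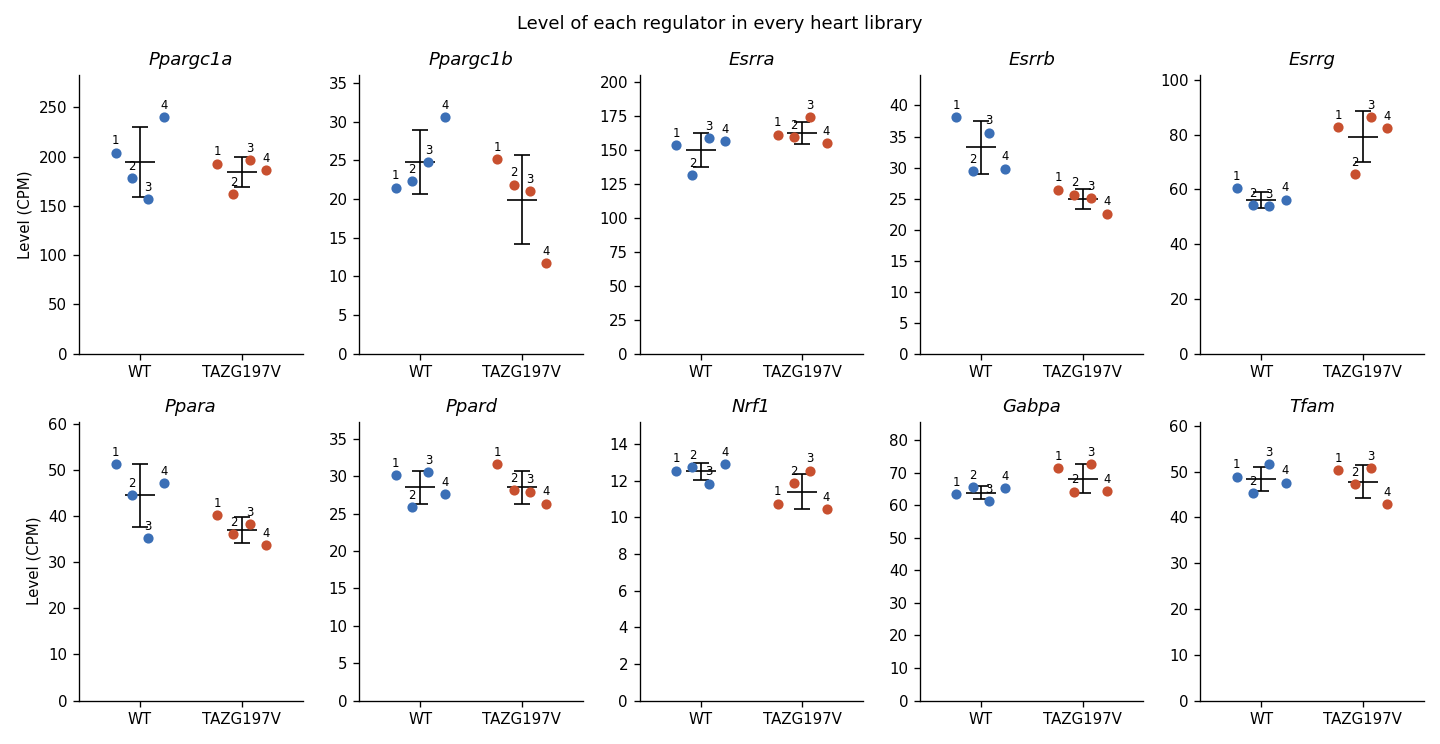
Level of each regulator in CPM (y axis from 0) in the 4 WT (blue) and 4 TAZG197V (red) libraries; points are libraries with their replicate number, the bar is the mean and the whiskers are 1 SD. The genotypes separate for Esrrb (lower in TAZG197V) and Esrrg (higher in TAZG197V) and overlap for the other 8 genes.

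Ppargc1a (ENSMUSG00000029167, chr5:51454250-51567726, minus strand) encodes PGC-1α, the coactivator best known for inducing mitochondrial biogenesis. Its level was 204, 178, 157 and 240 CPM in WT 1 to 4 and 193, 162, 196 and 186 CPM in TAZG197V 1 to 4. The TAZG197V values all lay inside the WT range. The log2 fold change was -0.09 (SE 0.114, adjusted p = 0.544, edgeR quasi-likelihood test), and its 95% interval ran from a level 21.9% lower to one 12.4% higher. The interval thus leaves room for a modest change either way. WT 4 was the highest library, and without both libraries numbered 4 the log2 fold change was 0.22 with surrogate variables, the estimated covariates of the model, and 0.03 without them.

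Ppargc1b (ENSMUSG00000033871, chr18:61298136-61400431, minus strand) encodes PGC-1β, a close relative that maintains basal mitochondrial gene expression. It stood at 21.5, 22.4, 24.8 and 30.6 CPM in WT and at 25.1, 21.9, 21.0 and 11.7 CPM in TAZG197V. TAZG197V 1 and 2 lay within the WT range, TAZG197V 3 lay just under it, and TAZG197V 4 was far below every other library. The log2 fold change was -0.41 (SE 0.177, adjusted p = 0.0997, edgeR quasi-likelihood test) and did not pass, with a 95% interval from 0.401% to 43.3% lower. Without TAZG197V 4 it was -0.07 (adjusted p = 0.60), and the difference in mean log2 CPM was 0.10 within the sequencing lane that held replicates 1 and 2 and -0.81 within that of replicates 3 and 4. DESeq2 called the gene lower (adjusted p = 0.032), as did the edgeR fit without WT 2 (adjusted p = 0.0118). It was -0.21 without WT 4 (adjusted p = 0.106), so the size of the difference rested on the 2 libraries with the highest levels of brain genes.

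Esrra (ENSMUSG00000024955, chr19:6910977-6921813, minus strand) encodes ERRα, the receptor through which PGC-1α reaches many respiratory genes. It was measured at 153, 131, 159 and 157 CPM in WT and at 161, 159, 174 and 155 CPM in TAZG197V, with overlap. Its log2 fold change was 0.09 (SE 0.053, adjusted p = 0.226, edgeR quasi-likelihood test), with a 95% interval from 2.39% lower to 15.6% higher.

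Esrrb (ENSMUSG00000021255, chr12:86361117-86521628, plus strand) encodes ERRβ, known above all for its roles in placenta, inner ear and pluripotent cells. It was measured at 38.1, 29.4, 35.6 and 29.8 CPM in WT and at 26.4, 25.6, 25.1 and 22.6 CPM in TAZG197V. Every TAZG197V library was below every WT library. Esrrb fell by 0.43 on the log2 scale (SE 0.080, adjusted p = 0.00385, edgeR quasi-likelihood test), a level 25.7% lower with a 95% interval of 15.7% to 34.6%. The differences in mean log2 CPM were -0.36 and -0.45 within the 2 sequencing lanes. The gene was called lower in 18 of 18 alternative fits, with log2 fold changes between -0.47 and -0.39.

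Esrrg (ENSMUSG00000026610, chr1:187608791-188214885, plus strand) encodes ERRγ, which in heart drives the perinatal switch to oxidative metabolism together with ERRα. It was measured at 60.4, 54.3, 53.8 and 56.3 CPM in WT and at 82.7, 65.7, 86.4 and 82.4 CPM in TAZG197V. The groups did not overlap, and TAZG197V 2 lay closest to WT. Esrrg rose by 0.49 on the log2 scale (SE 0.095, adjusted p = 0.0045, edgeR quasi-likelihood test), a level 40.7% higher with a 95% interval of 21.0% to 63.7%. The within-lane differences in mean log2 CPM were 0.36 and 0.62. It was called higher in 17 of 18 alternative fits, between 0.44 and 0.57 on the log2 scale. The exception left out both libraries numbered 4 (log2 fold change 0.54, adjusted p = 0.0542), and without surrogate variables those same 6 libraries gave 0.48 and an adjusted p of 0.0109. At a fold beyond 1.5, which 12.2% of all genes passed, neither Esrrb nor Esrrg was called.

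**Figure D2:**
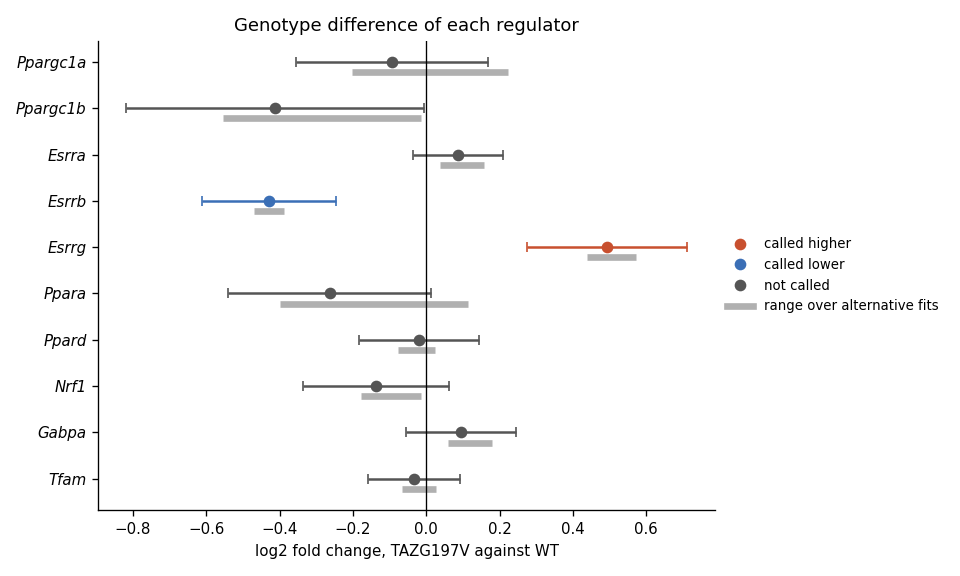
log2 fold change of each regulator, TAZG197V against WT (x axis), from the edgeR fit with its 95% interval (points and whiskers, coloured by call); grey bars span the value over 18 alternative fits. Only the intervals of Esrrb and Esrrg belong to called genes, and the grey bars of Ppargc1a, Ppara, Ppard and Tfam cross 0.

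The ratio of 2 members within a library needs no scaling between libraries and was compared for 6 pairs. The log2 ratio of Esrrb to Esrrg was -0.67, -0.88, -0.60 and -0.92 in WT and -1.64, -1.36, -1.78 and -1.87 in TAZG197V. All 4 TAZG197V libraries were lower. The mean ratio in TAZG197V was 0.537 of that in WT, a log2 difference of -0.90 (two-sided exact permutation p = 0.0286, adjusted p = 0.0571 over 6 pairs). The smallest p that 4 against 4 allows is 0.0286, so the adjusted value could not have passed 0.05 unless more of the pairs had reached that limit.

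Esrrb also stood lower against Esrra in every TAZG197V library, by 0.52 on average (mean log2 ratio -2.18 in WT and -2.70 in TAZG197V, two-sided exact permutation p = 0.0286, adjusted p = 0.0571). Esrrg stood higher against Esrra by 0.37, but TAZG197V 2 overlapped WT (exact permutation p = 0.0571, adjusted p = 0.0857). No pair passed 0.05 after adjustment.

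Levels were also set per kilobase of exon, with all annotated exons of a gene merged. They thus depend on that length, and the isoforms present were not examined. On this scale Esrra supplied most of the summed ERR level in both genotypes. Its share of the summed level of the 3 receptors was 70.1% ± 1.69 (SD, n = 4) in WT and 68.7% ± 1.67 in TAZG197V. The share of Esrrb was 11.3% ± 1.02 in WT and 7.66% ± 0.580 in TAZG197V, and that of Esrrg was 18.6% ± 1.26 and 23.6% ± 2.05. Esrrb ranged from 9.93% to 12.4% in WT and from 7.14% to 8.28% in TAZG197V, without overlap. Esrrg ranged from 17.1% to 20.1% in WT and from 20.7% to 25.4% in TAZG197V, also without overlap. The summed level of the family was 48.7 ± 3.50 CPM per kilobase in WT and 53.9 ± 2.88 in TAZG197V. The share of Esrra overlapped between genotypes, from 68.6% to 71.8% in WT and from 67.5% to 71.0% in TAZG197V.

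**Figure D3:**
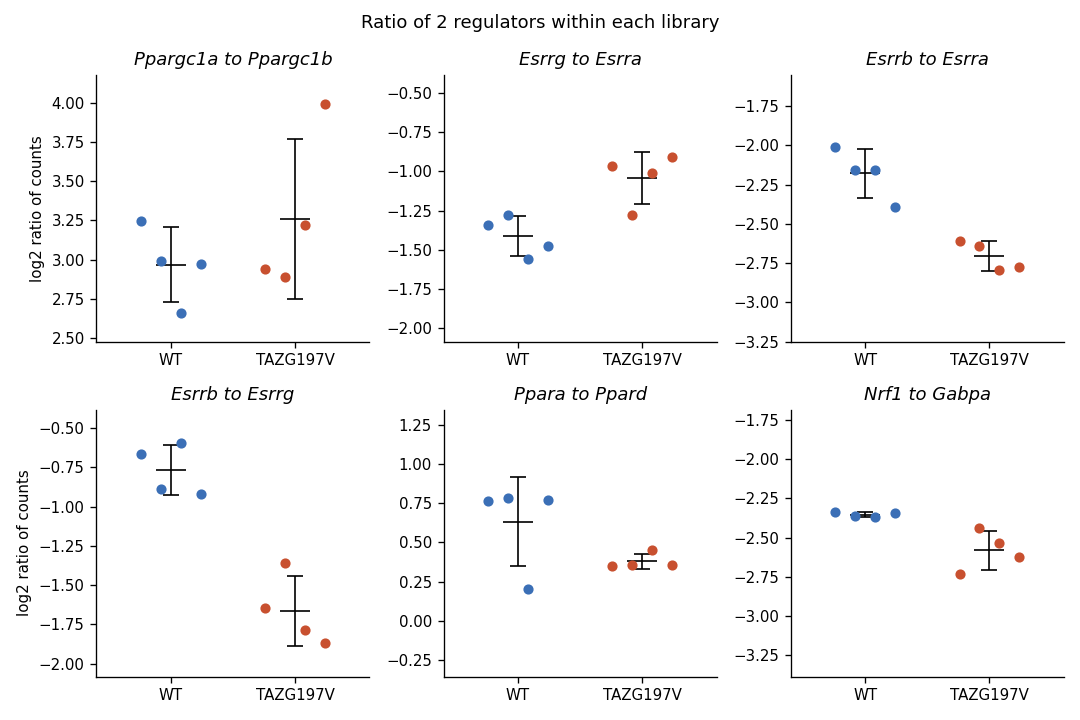
log2 ratio of the counts of 2 regulators within each library (y axis, each panel spanning the same log2 range) for 6 pairs in WT (blue) and TAZG197V (red); points are libraries, bars are means and whiskers are 1 SD (n = 4). The genotypes separate for Esrrb to Esrra, Esrrb to Esrrg and Nrf1 to Gabpa, and TAZG197V 4 alone stands high for Ppargc1a to Ppargc1b.

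Ppara (ENSMUSG00000022383, chr15:85734983-85802819, plus strand) encodes PPARα, the fatty-acid-activated receptor that controls cardiac fatty acid oxidation. It was measured at 51.3, 44.6, 35.3 and 47.1 CPM in WT and at 40.3, 36.1, 38.2 and 33.8 CPM in TAZG197V. Of the WT libraries, 3 lay above all TAZG197V libraries, and WT 3 lay among them. This gave a log2 fold change of -0.26 (SE 0.121, adjusted p = 0.118, edgeR quasi-likelihood test). Without WT 3 the gene was called lower (log2 fold change -0.40, adjusted p = 0.00422), and without both libraries numbered 4 the value was 0.11 (adjusted p = 0.484), or -0.20 (adjusted p = 0.257) when the surrogate variables were dropped as well. The data thus gave Ppara no stable call.

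Ppard (ENSMUSG00000002250, chr17:28232700-28301474, plus strand) encodes PPARδ, which shares many targets with PPARα in muscle. Its level ran from 25.9 to 30.6 CPM in WT and from 26.4 to 31.6 CPM in TAZG197V. The log2 fold change was -0.02 (SE 0.071, adjusted p = 0.849, edgeR quasi-likelihood test), with a 95% interval from 11.9% lower to 10.5% higher. The log2 ratio of Ppara to Ppard differed by -0.25 between genotypes (two-sided exact permutation p = 0.143, adjusted p = 0.171). WT 3, at 0.21 against 0.77 to 0.79 in the other WT libraries, was the lowest of all 8.

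Nrf1 (ENSMUSG00000058440, chr6:30047988-30153458, plus strand) encodes nuclear respiratory factor 1, which is a different protein from NFE2L1 of the same nickname. It was the member with the lowest level, at 12.5, 12.7, 11.8 and 12.9 CPM in WT and 10.8, 11.8, 12.6 and 10.5 CPM in TAZG197V. The ranges overlapped, and the log2 fold change was -0.14 (SE 0.087, adjusted p = 0.243, edgeR quasi-likelihood test).

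Gabpa (ENSMUSG00000008976, chr16:84834925-84863779, plus strand) was measured at 63.5, 65.5, 61.3 and 65.4 CPM in WT and at 71.4, 64.2, 72.7 and 64.4 CPM in TAZG197V, again with overlap. Its log2 fold change was 0.09 (SE 0.065, adjusted p = 0.281, edgeR quasi-likelihood test). In the annotation 6.98% of its exon bases lie within an exon of another gene, so part of its count is uncertain. The log2 ratio of Nrf1 to Gabpa was tight in WT, between -2.37 and -2.34, and lower in every TAZG197V library, between -2.73 and -2.44. The difference was -0.23 (two-sided exact permutation p = 0.0286, adjusted p = 0.0571), although neither gene passed the test by itself.

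Tfam (ENSMUSG00000003923, chr10:71225464-71238280, minus strand) encodes the high-mobility-group protein that coats mitochondrial DNA. It was measured at 48.8, 45.2, 51.6 and 47.6 CPM in WT and at 50.4, 47.2, 50.8 and 42.9 CPM in TAZG197V, with overlap. With a log2 fold change of -0.03 (SE 0.055, adjusted p = 0.659, edgeR quasi-likelihood test), Tfam did not pass, and the 95% interval ran from 10.4% lower to 6.65% higher. Genes encoded on the mitochondrial chromosome took between 21.6% and 24.6% of the counts of each library, with overlap of the genotypes.

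By level per kilobase of exon in WT, Esrra (34.2 ± 2.87 CPM per kilobase) and Ppargc1a (29.5 ± 5.40) came first and overlapped. Ppara (11.6 ± 1.78), Gabpa (11.2 ± 0.348) and Tfam (10.9 ± 0.601) followed, with each overlapping the next in that order. Esrrg (9.05 ± 0.487) came next, then Ppargc1b (6.22 ± 1.03) and Esrrb (5.50 ± 0.711), which overlapped. Ppard (3.80 ± 0.297) and Nrf1 (1.22 ± 0.0451) were the lowest. This order too depends on the merged exon length. In TAZG197V hearts Esrrg stood at rank 3 with 12.8 ± 1.49 CPM per kilobase and Ppara at rank 6 with 9.67 ± 0.727, and the other 8 members kept their rank.

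Over the 8 libraries, the tested genes whose log2 CPM followed Ppargc1a most closely by Pearson's r were Hectd4 (0.957), Snrnp200 (0.954), Ap5m1 (0.936), ENSMUSG00000118423, which has no symbol here (0.916), and Gigyf1 (0.914). None of the other 9 members was among these 5. The libraries differ in genotype and in their levels of brain, red cell and atrial genes, so these values are a description.

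Around the regulators, 6 lists of partner and target genes held 88 genes, of which 85 were tested. Of these 9 were called higher and 26 lower, and the median log2 fold change was -0.08. Some genes stand in more than 1 list, Perm1, Acadm and Cycs among those called lower. Lower calls outnumbered higher ones in 5 of the 6 lists, in the NRF1 and GABP list by 1 gene. The share of tested genes called lower was 50.0% among the coregulators, 40.0% among the partner factors, 43.8% among the ERR-site genes, 27.3% among the PPAR targets and 20.0% among the NRF1 and GABP targets, beside 15.1% of all genes. The nucleoid genes around TFAM had no lower calls, and 18.2% were called higher, near the 18.5% of all genes.

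Among 14 coregulators that act with or against PGC-1, 7 were called lower and 1 higher, and the list's median log2 fold change was -0.24. Lpin1, whose product lipin 1 binds PGC-1α and PPARα and also acts as a phosphatidic acid phosphatase, fell most. It was measured at 249, 219, 238 and 312 CPM in WT and at 110, 102, 100.0 and 105 CPM in TAZG197V, and the groups lay far apart (log2 fold change -1.32, SE 0.071, adjusted p = 9.43e-06, edgeR quasi-likelihood test). Perm1, a striated-muscle factor that is induced by PGC-1 and ERR and acts with them, was measured at 441, 361, 462 and 435 CPM in WT and at 273, 246, 251 and 246 CPM in TAZG197V. Every TAZG197V value was below every WT value (log2 fold change -0.77, SE 0.067, adjusted p = 0.0001, edgeR quasi-likelihood test). Nrip1, which encodes the corepressor RIP140, was also called lower (log2 fold change -0.40, adjusted p = 0.00733, edgeR quasi-likelihood test). Pprc1, the third PGC-1 family gene, had a log2 fold change of 0.20 (adjusted p = 0.138, edgeR quasi-likelihood test). Without both libraries numbered 4, 3 of the 14 were called with surrogate variables, where 17.4% of all genes were, and 6 without them, where 30.6% of all genes were.

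Among 15 partner and upstream transcription factors, 6 were called lower and none higher, with a median log2 fold change of -0.12. Rxra, the obligate dimer partner of the PPARs, stood at 81.4, 71.8, 79.5 and 82.2 CPM in WT and at 54.7, 47.8, 53.9 and 53.0 CPM in TAZG197V. The groups were clearly apart (log2 fold change -0.61, SE 0.063, adjusted p = 0.000221, edgeR quasi-likelihood test). Its relative Rxrg fell by 0.48 on the log2 scale, and Mef2c, a muscle factor that acts on the Ppargc1a promoter, by 0.49. The other RXR gene, Rxrb, named here after its values were seen, did not pass (log2 fold change 0.14, adjusted p = 0.119, edgeR quasi-likelihood test). Pparg, the PPAR typical of adipose tissue, had a log2 fold change of 0.14 (adjusted p = 0.424, edgeR quasi-likelihood test). Without both libraries numbered 4, 3 of the 15 were called with surrogate variables, beside 17.4% of all genes. Without surrogate variables as well, 5 of the 15 were called, beside 30.6% of all genes.

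Of 16 genes with ERR sites described in heart, 7 were called lower and 1 higher, with a median log2 fold change of -0.14. Beside Perm1, the largest decreases were those of Etfdh, which passes electrons from fatty acid oxidation to ubiquinone (787 ± 58.9 CPM in WT and 554 ± 11.2 in TAZG197V, log2 fold change -0.52), and of Acadm, the medium-chain acyl-CoA dehydrogenase (1186 ± 113 and 880 ± 29.1 CPM, log2 fold change -0.44; SD, n = 4). The list holds respiratory, citric acid cycle and fatty acid genes.

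Of 25 PPAR target genes, 22 were tested, and 4 were called higher (18.2%, beside 18.5% of all genes) and 6 lower (27.3%, beside 15.1%), with a median log2 fold change of -0.11. Acot2, a mitochondrial acyl-CoA thioesterase, rose from 62.7 ± 7.54 CPM in WT to 232 ± 8.99 CPM in TAZG197V (log2 fold change 1.87, adjusted p = 3.63e-06, edgeR quasi-likelihood test). Acot1, its cytosolic paralog, fell from 10.2 ± 2.75 to 4.29 ± 1.11 CPM (log2 fold change -1.30, adjusted p = 4.96e-05, edgeR quasi-likelihood test). The paralogs share sequence, 27.7% of the 50-base words of Acot2 and 19.2% of those of Acot1 being found in another gene, so their counts are uncertain. Ehhadh, the peroxisomal bifunctional enzyme, fell by 0.82 on the log2 scale. Pdk4, the kinase that turns down pyruvate dehydrogenase, ran from 593 to 1489 CPM in WT and from 1055 to 1712 CPM in TAZG197V, with overlap, and did not pass (log2 fold change 0.59, adjusted p = 0.0621, edgeR quasi-likelihood test). It was called higher in 4 of 18 alternative fits, among them those without WT 4 (0.87, adjusted p = 0.00685) or TAZG197V 4 (0.68, adjusted p = 0.0312). Cpt1b, the muscle form of carnitine palmitoyltransferase 1, had a log2 fold change of -0.02 (adjusted p = 0.842, edgeR quasi-likelihood test), and 81.4% of its exon bases overlap another gene's exons.

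Of 15 NRF1 and GABP target genes, 2 were called higher and 3 lower, a share of 33.3% beside 33.5% of all genes, with a median log2 fold change of 0.09. Alas1, the first enzyme of haem synthesis, fell by 0.52 on the log2 scale, although the CPM ranges overlapped, and was called in 17 of 18 alternative fits. The exception left out both libraries numbered 4 and the surrogate variables (log2 fold change -0.35, adjusted p = 0.0659, edgeR quasi-likelihood test). Cycs, encoding somatic cytochrome c, fell by 0.40, and 26.1% of its 50-base words are found in another gene. Tomm20, a receptor of the outer membrane translocase, rose by 0.42. The mitochondrial transcription genes Tfb2m (log2 fold change 0.08, adjusted p = 0.441) and Polrmt (0.12, adjusted p = 0.152) did not pass the edgeR quasi-likelihood test. For Tfb2m, 31.9% of the 50-base words are found in another gene, so its count is uncertain.

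Among 11 genes of the mitochondrial nucleoid around TFAM, 2 were called higher and none lower, with a median log2 fold change of 0.15. Lonp1, the matrix protease known to degrade TFAM, was measured at 182, 156, 194 and 165 CPM in WT and at 775, 775, 656 and 605 CPM in TAZG197V. The groups lay far apart (log2 fold change 1.99, SE 0.082, adjusted p = 2.14e-06, edgeR quasi-likelihood test). Twnk, the mitochondrial DNA helicase, rose by 0.21 and was called in 11 of 18 alternative fits. Leaving out 1 library at a time gave 1 to 4 called nucleoid genes: 1 without WT 1, WT 2, TAZG197V 1 or TAZG197V 3, and 4 without TAZG197V 4.

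**Figure D4:**
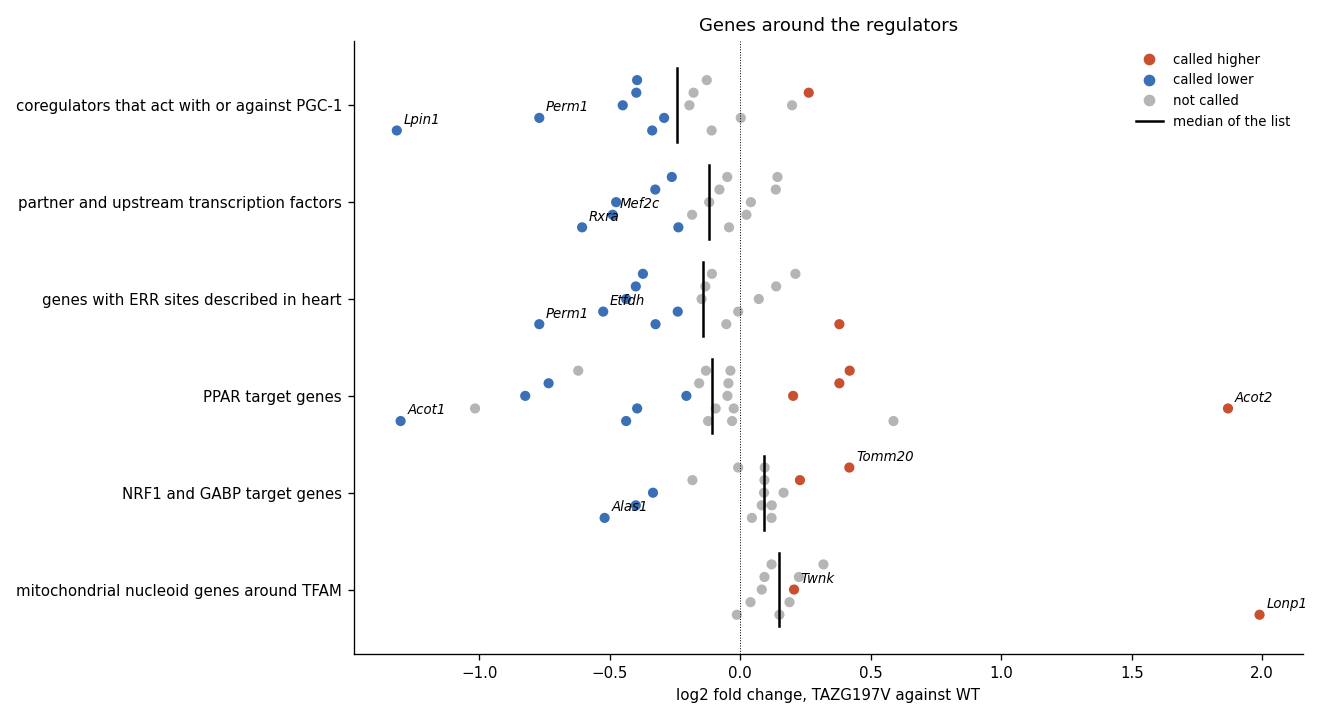
log2 fold change, TAZG197V against WT (x axis), of every tested gene in the 6 lists around the regulators (rows; points spread vertically to separate them); red is called higher, blue called lower, grey not called, black bars are list medians, and up to 2 called genes per list are named. Lower calls prevail among coregulators, partner factors and ERR-site genes, and Lonp1 and Acot2 stand far to the right.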

How the data were processed

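Total RNA from heart pieces of 8 mice was sequenced as single reads from TruSeq libraries. Per the labels and the methods of the study, the authors demultiplexed reads with bcl2fastq (2.20.0), aligned them to mm10 with STAR (2.7.3a) and counted exon reads per gene with featureCounts (Subread 2.0.0). What they deposited is 1 table of raw counts by gene ID for each library. Annotation release, strand setting and treatment of multi-mapped reads were not given in the sources used here. A read matching several genes may have been dropped or split, so overlapping and near-identical genes are uncertain.

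The 92 spike-in rows summed to 0 and were left out. Symbols, positions and exon lengths came from GENCODE M21 on GRCm38, where 55230 of 55471 gene IDs had a symbol. Counts were fitted in R 4.3.3 with edgeR 4.0.16 (TMM scaling, filterByExpr, quasi-likelihood F-test, Benjamini-Hochberg over 15084 genes) with 2 surrogate variables from sva 3.50.0, genotype protected. The fit was tried on simulated counts with known changes. Their library effect, where there was any, was shared by both libraries numbered 4. Effects held by a single library were not simulated. CPM values are TMM-scaled with no covariate removed. Log2 ratios of members used the raw counts with nothing added and were compared over all 70 arrangements of the libraries (scipy 1.17.1). The labels do not describe the mice singly, so p-values measure the spread between these libraries.

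The members and lists were chosen with earlier results of these data known. Named genes were the 10 members, Taz, up to 3 called genes of largest change per list, 8 set genes (Pprc1, Perm1, Nrip1, Pparg, Pdk4, Cpt1b, Tfb2m and Polrmt) and the 5 genes most like Ppargc1a, of which 1 gene from the lists is not reported here. Alternatives were DESeq2 1.42.0 and its size factors, other or no covariates, other filters and cut-offs, and libraries left out. The samples were treated as unpaired, and whether the numbers in their titles mark pairs is not known. The correlation of same-numbered deviations was 0.28, 0.044, 0.28 and 0.42 for numbers 1 to 4. Between different numbers it ran from -0.46 to 0.32. With the numbers taken as pairs, a two-sided exact sign-flip test gave p = 0.125 for Esrrb to Esrra, Esrrb to Esrrg and Nrf1 to Gabpa. That is the smallest p that such a test of 4 pairs allows.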

Additional observations from a re-analysis of the deposited data

Results flagged for a closer look

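In 3 of 32 sets of 4 libraries examined, 1 library was separated from the rest by a gap larger than the 95% limit of Dixon's test, which by construction is passed by chance in about 5% of sets. Esrrg was low in TAZG197V 2 among the TAZG197V libraries, at 65.7 CPM against 82.4 to 86.4 CPM, a gap of 0.8292 of the range on the log2 scale. Leaving that library out kept the call. The log2 ratio of Ppara to Ppard was low in WT 3 among the WT libraries, with a gap of 0.964 of the range. Ppara was at 35.3 CPM there and at 44.6 to 51.3 CPM in the other 3, and Ppard was at 30.6 CPM there and at 25.9 to 30.2 CPM in the other 3. The same ratio was high in TAZG197V 3 among the TAZG197V libraries, with a gap of 0.893 of a narrow range from 0.35 to 0.45.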

How the results depend on the processing

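The members' 10 log2 fold changes were recomputed in 18 fits and under 3 other call rules, 210 values in all, of which 193 kept direction and call. Signs changed for 4 members, for Cpt1b and for the 4 genes with a symbol most like Ppargc1a. Leaving out 1 library gave Ppargc1a -0.20 to 0.038, Ppard -0.078 to 0.025, Tfam -0.066 to 0.027 and, among target genes, Cpt1b -0.098 to 0.053. Without both libraries numbered 4 the values were 0.22 for Ppargc1a, 0.11 for Ppara and 0.013 for Cpt1b, and without surrogate variables as well 0.030 for Ppargc1a, 0.018 for Ppard and 0.026 for Tfam. Ppard was at 6.47e-05 with 1 surrogate variable, and Ppard and Tfam were at 0.013 and 0.015 without the low-count filter. The cause was not tested. The fit without both libraries numbered 4 and surrogate variables was chosen after seeing the data.

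A fold beyond 1.5 left 1843 genes called, 12.2% of all genes. Among them were 0 of 10 members, 2 of 14 coregulators, 1 of 15 partner factors and 1 of 16 ERR-site genes. So were 4 of 22 PPAR targets, 0 of 15 NRF1 and GABP targets and 1 of 11 nucleoid genes. An adjusted p under 0.01 left 3174 of 15084 genes, 3 of 15 partner factors, 5 of 16 ERR-site genes and 1 of 11 nucleoid genes. Without both libraries numbered 4, 2647 genes (17.4%), 1 of 10 members, 3 of 14 coregulators and 3 of 15 partner factors were called. Of 11 nucleoid genes, 1 was called with DESeq2 (4714 of 15084 genes) or its size factors (5051 of 15084). Without both libraries and surrogate variables 4 were, beside 30.6% of all genes. Leaving out 1 library gave from 3675 of 15251 to 5241 of 15136 genes, 2 to 3 of 10 members and 1 to 4 of 11 nucleoid genes. With the replicate block in place of surrogate variables 4272 of 15084 genes and 2 of 10 members were called.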
